A study of Mus musculus with 10 samples.

Results

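The response of eosinophils to LPS was set against the response of basophils to IgE, gene by gene, on 8 of the 10 arrays of the series. For each gene, the log2 difference between LPS and unstimulated bone marrow-derived eosinophils (BMEos) and that between IgE and unstimulated bone marrow-derived basophils (BMBs) were each averaged over the 2 genotypes, and the IgE difference was then subtracted from the LPS difference. All 19937 genes with a probe set of their own were considered, and 13366 of them stood above background on at least 1 of the 8 arrays and were tested.

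Cells of Slpi-/- and wildtype mice on the C57BL6/N strain, grown from bone marrow, were measured on Affymetrix Mouse Gene 1.0 ST arrays, with 1 array per combination of cell type, stimulus and genotype. The stimulated eosinophils were cultured with LPS at 1 µg/ml for 3 h, and the stimulated basophils were incubated with anti-TNP-IgE for 1 h and then with its antigen, TNP-ovalbumin, for 12 h. Their references were Slpi-/- and wildtype cells of the same type without the stimulus. Slpi-/- cells lack secretory leukocyte protease inhibitor in every cell of the culture, and both genotypes entered each average. BMBs grew in IL-3 and were sorted by magnetic beads as c-kit- DX5+ cells, and BMEos grew in stem cell factor and Flt3 ligand and then in IL-5. How many mice or cultures went into each array is not given in the sources used here. Each p-value rests on the spread between the Slpi-/- and the wildtype pairs of arrays, pooled over both cell types. It also draws on the spread of all tested genes, and it does not measure the spread between mice. The cell types received different stimuli for different times, and cell type, stimulus and time cannot be told apart in what follows. For LPS, sex and culture add to these, as given below. No sex or age of the mice is given in the labels.

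LPS, a glycolipid of the outer membrane of Gram-negative bacteria, is sensed by Toll-like receptor 4 with its partners CD14 and MD-2, and signals through MyD88 to NF-kB and MAP kinases and through TRIF to IRF3 and type I interferon. IgE bound to its high-affinity receptor FceRI is cross-linked by antigen, and the receptor signals through Lyn and Syk to calcium, NFAT, MAP kinases and NF-kB. Eosinophils and basophils are rare granulocytes of type 2 immunity. The eosinophil stores cationic granule proteins, and the basophil releases histamine, leukotrienes and IL-4.

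The identity of the cells fitted the labels. On the BMEos arrays, the log2 signal of Prg2, which encodes major basic protein, lay between 12.02 and 12.35, with 4.86 to 5.58 on the BMB arrays, and Mcpt8, a basophil protease, had signals between 12.72 and 13.29 on the BMB arrays and between 5.18 and 5.58 on the BMEos arrays. Background was taken from 1027 genes of olfactory receptors, whose 95th percentile was 5.56 to 5.68, depending on the array. The LPS arrays read 9.66 and 9.72 for Xist, the RNA that silences 1 X chromosome in females, against 4.90 and 4.15 on the unstimulated BMEos arrays, and the Y-linked genes Eif2s3y, Uty and Kdm5d ran the other way (Eif2s3y at 3.54 and 3.22 with LPS, and at 8.45 and 8.20 without). Sex-linked expression thus differed between the LPS and the unstimulated BMEos arrays, which were not split from the same culture. Sex, culture and LPS cannot be told apart there, and a pair of BMEos arrays is matched by genotype and not by culture. Of the BMB arrays, the unstimulated wildtype one carried higher signals of early granule genes (Mpo at 8.84 and Elane at 7.14, with the other BMB arrays at or below 6.0 for Mpo and 5.47 for Elane), and the wildtype IgE array carried lower signals of platelet genes (Ppbp at 8.81, against 10.81 to 11.45 on the other BMB arrays). In bulk RNA, fewer cells of a type and less RNA per cell cannot be told apart.

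With LPS, 1730 genes rose in BMEos (12.9% of those tested) and 2214 fell (16.6%). With IgE, 1662 genes rose in BMBs (12.4%) and 1439 fell (10.8%). A gene passed when its adjusted p in limma was below 0.05. The direction of the LPS calls depended on the scaling: 30.4% of them were rises once each array was centred on its median, against 43.9% as deposited, and the median LPS difference of all genes was -0.06 and 0.02 in these settings. Without the genes of chromosomes X and Y, 3854 genes passed with LPS and 3012 with IgE. Both counts were lower without a pair of arrays: 1542 genes passed with LPS without the Slpi-/- pair of BMEos and 1579 without the wildtype pair, and 1134 passed with IgE without the Slpi-/- pair of BMBs and 2206 without the wildtype pair. The difference between the responses itself passed for 1328 genes on the side of LPS (9.94%) and for 1812 genes on the side of IgE (13.6%). Across all tested genes, the Pearson correlation of the responses was 0.09 (0.08 within Slpi-/- cells and 0.10 within wildtype cells), a description across genes that share arrays. Within a response the genotypes ran together, with r = 0.89 for LPS and 0.75 for IgE.

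Genes were then sorted by what they did in each cell type. Moved alike were 259 genes that rose with both stimuli (1.94% of the tested genes) and 586 that fell with both (4.38%), so that rises made up 30.7% of them, and 19.3% with arrays centred on their medians. Moved in opposite directions were 153 genes that rose with LPS and fell with IgE (1.14%) and 276 genes that fell with LPS and rose with IgE (2.06%), and for all 429 the difference between the responses passed as well. A gene counted as moved in 1 cell type only when it passed there, did not pass in the other and stayed under 0.5 in size on the log2 scale there, and when the difference between the responses passed. By that rule, 683 genes rose (5.11%) and 698 fell (5.22%) in BMEos only, and 645 rose (4.83%) and 341 fell (2.55%) in BMBs only. A further 2130 genes passed in 1 cell type without meeting either rule, and 7595 passed in neither. Of the genes that fell with LPS, 26.5% also fell with IgE, against 10.8% of all tested genes. Of those that fell with IgE, 40.7% also fell with LPS, against 16.6% of all. The shares were lower among the rises, and near those of all tested genes. Of the genes that rose with LPS, 15% also rose with IgE, against 12.4% of all. Of those that rose with IgE, 15.6% also rose with LPS, against 12.9% of all. Most moves were small. At 2-fold or more in both cell types, 19 genes rose alike, 28 fell alike, 13 rose with LPS and fell with IgE, and 22 fell with LPS and rose with IgE. Most genes that moved in 1 cell type were also measured above background in the other: 1244 of the 1381 genes that moved in BMEos only stood above background on a BMB array, as did 867 of the 986 that moved in BMBs only on a BMEos array.

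**Figure D1:**
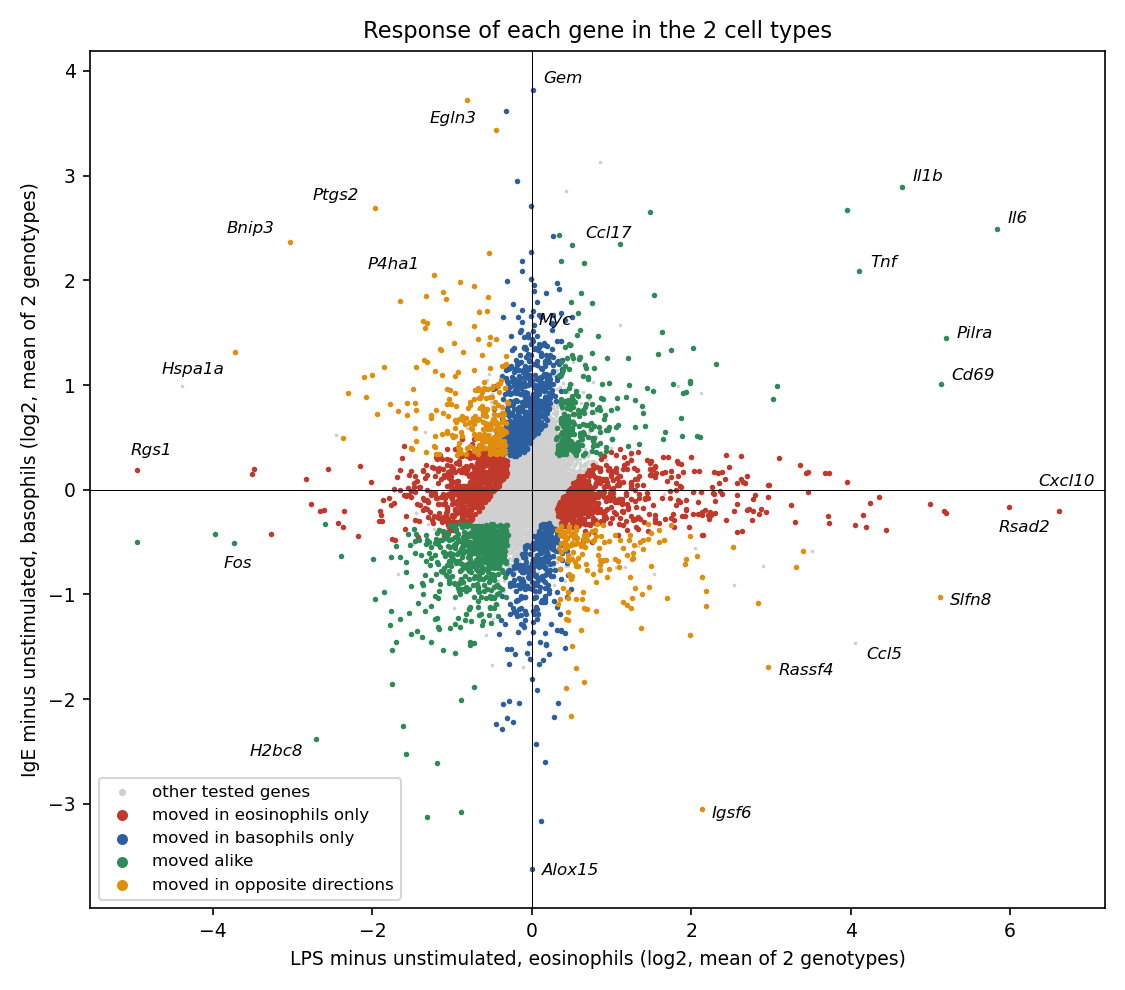
LPS minus unstimulated in BMEos (x axis) and IgE minus unstimulated in BMBs (y axis), both in log2 and averaged over the 2 genotypes, with 1 point for each of the 13366 tested genes, coloured by how the gene moved. Il1b, Il6 and Tnf lie high on both axes, Cxcl10 lies at 6.61 on the x axis and -0.20 on the y axis, and Bnip3 lies at -3.04 and 2.37.

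The 250 bases upstream of the start of leading genes were searched for 5 motifs, on both strands: AP-1 (TGANTCA), NF-kB (GGANTTTCC), the cAMP response element (TGACGTCA), the hypoxia response core (ACGTG) and the core of the interferon response element (TTCNNTTTC). The palindrome CACGTG holds the hypoxia core on both strands. The last 2 motifs, and Cxcl10 as a gene shown, were chosen after values were seen. Sequences are from RefSeq, build GRCm38.p6, read on the strand of the gene, with the motifs in capitals. A match is a description of letters, not a site. Shown are 1 of the leading genes that rose with both stimuli, 1 that rose in BMEos only, both leading genes that fell with LPS and rose with IgE, and 1 that did the reverse. The windows of the other leading genes, Il1b, H2bc8, H1f2 and Rassf4, held none of the 5 motifs and are not shown.
Il1a (chr2:129309973-129310222, minus strand): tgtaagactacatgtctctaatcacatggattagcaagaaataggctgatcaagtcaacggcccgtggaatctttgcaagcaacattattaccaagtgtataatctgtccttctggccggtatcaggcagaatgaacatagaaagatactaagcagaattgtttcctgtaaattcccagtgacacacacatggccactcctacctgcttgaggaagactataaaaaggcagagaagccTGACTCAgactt
Cxcl10 (chr5:92348890-92349139, minus strand): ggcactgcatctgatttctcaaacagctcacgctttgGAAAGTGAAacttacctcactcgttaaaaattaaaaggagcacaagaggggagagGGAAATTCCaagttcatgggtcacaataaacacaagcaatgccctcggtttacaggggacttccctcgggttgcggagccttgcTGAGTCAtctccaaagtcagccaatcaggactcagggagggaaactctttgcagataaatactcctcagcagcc
Bnip3 (chr7:138909507-138909756, minus strand): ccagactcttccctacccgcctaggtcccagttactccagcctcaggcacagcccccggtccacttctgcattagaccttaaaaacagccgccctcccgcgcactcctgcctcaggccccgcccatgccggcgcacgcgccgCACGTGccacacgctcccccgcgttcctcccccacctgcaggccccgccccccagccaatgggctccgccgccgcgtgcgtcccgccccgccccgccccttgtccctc
Ptgs2 (chr1:150099781-150100030, plus strand): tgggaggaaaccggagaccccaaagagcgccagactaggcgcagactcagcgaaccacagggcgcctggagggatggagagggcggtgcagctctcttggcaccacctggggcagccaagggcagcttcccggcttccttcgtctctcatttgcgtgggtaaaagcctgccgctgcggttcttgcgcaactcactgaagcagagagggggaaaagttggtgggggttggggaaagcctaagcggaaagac
Igsf6 (chr7:121074531-121074780, minus strand): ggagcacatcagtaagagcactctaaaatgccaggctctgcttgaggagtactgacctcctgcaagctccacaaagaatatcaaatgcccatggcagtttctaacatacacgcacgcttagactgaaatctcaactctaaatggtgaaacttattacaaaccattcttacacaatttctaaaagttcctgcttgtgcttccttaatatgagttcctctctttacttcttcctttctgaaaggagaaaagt
Il1a held 1 AP-1 match, which starts at base -12 from the gene's start. Cxcl10 held 1 interferon core at -213, 1 NF-kB match at -158 and 1 AP-1 match at -74. Bnip3 held the hypoxia core on both strands, at -108 and -107, as a single palindrome. Ptgs2 and Igsf6 held none of the 5 in this window, which says nothing of sites elsewhere.

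Over 10598 tested genes with such a window, 21% held the hypoxia core, and the share was 31.8% (68 of 214) among genes that fell with LPS and rose with IgE, 27.2% (155 of 569) among those that fell in BMEos only, and 14.6% (19 of 130) among those that rose with LPS and fell with IgE. The interferon core was in 6.17% of all windows, in 10% (53 of 530) of the genes that rose in BMEos only and in 13.1% (17 of 130) of those that rose with LPS and fell with IgE. NF-kB matches were in 1.12% of all windows, in 2.83% (15 of 530) of the genes that rose in BMEos only in 2.39% (5 of 209) of those that rose with both stimuli and in 3.85% (5 of 130) of those that rose with LPS and fell with IgE. The cAMP response element was in 2.51% of all windows and in 5.26% (11 of 209) of the genes that rose with both stimuli. AP-1 was in 4.71% of all windows and in 3.83% (8 of 209) of the genes that rose with both stimuli. Its share was 6.79% (36 of 530) among genes that rose in BMEos only and 7.2% (19 of 264) among those that fell in BMBs only. These shares are descriptions, and the groups were made from the same values as the results. Over all 27025 promoters of the table, the hypoxia core was in 16.6%, the interferon core in 7.16%, AP-1 in 6.87%, the cAMP response element in 1.62% and NF-kB in 1.05%.

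Genes of inflammatory cytokines led those that rose with both stimuli. Il1b, whose product is the fever-inducing cytokine IL-1 beta, had log2 signals of 10.27 and 10.57 on the LPS arrays, against 5.92 and 5.64 on the unstimulated BMEos arrays, and of 10.91 and 11.01 on the IgE arrays, against 7.97 and 8.18 on the unstimulated BMB arrays. Its signal did not overlap between the stimulated and the unstimulated arrays of either cell type. Il1b rose by 4.64 ± 0.15 with LPS (SE from the fit of all 8 arrays, limma adjusted p = 1.8e-05) and by 2.89 ± 0.15 with IgE (adjusted p = 0.000372). Il6, the gene of a cytokine that drives the acute phase response, had signals of 10.16 and 9.94 with LPS, against 4.41 and 4.02 without, and of 11.61 and 11.26 with IgE, against 8.81 and 9.09 without. The unstimulated BMEos arrays lay below background for Il6 and the unstimulated BMB arrays above it. Tnf had signals of 11.05 and 11.16 with LPS, against 6.85 and 7.15 without, and of 9.18 and 9.15 with IgE, against 6.85 and 7.31 without. Its product opens the endothelium to leukocytes, and its start levels were alike in the 2 cell types. Il1a, the gene of the second IL-1 form, had 9.42 and 9.36 with LPS, against 5.42 and 5.43, and 7.80 and 7.30 with IgE, against 4.99 and 4.78. For each of these 4 genes the LPS rise was the larger, by 1.75 for Il1b, 3.35 for Il6, 2.02 for Tnf and 1.29 for Il1a, and each of these differences passed in limma (adjusted p between 0.000376 and 0.00297). The list of inflammatory and regulatory cytokines had 17 tested members, of which 9 rose and 1 fell with LPS, and 6 rose and 5 fell with IgE (2 fell without the Slpi-/- pair of BMBs). Its median was 0.59 with LPS and -0.02 with IgE, where all tested genes had medians of 0.02 and -0.02.

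Other members of the cytokine list did not move alike. Ltb (LPS difference 1.66, IgE difference -0.48) and Ebi3 (1.99 and -0.44), which encode lymphotoxin beta and a subunit of IL-27 and IL-35, rose with LPS and fell with IgE. Tnfsf14, the gene of the T cell costimulator LIGHT, fell by 0.45 with LPS and rose by 1.44 with IgE. Il15, which sustains NK cells, stayed below background on the BMEos arrays and fell in BMBs, with signals of 6.40 and 7.14 with IgE, against 8.49 and 8.32 without (IgE difference -1.63 ± 0.22, limma adjusted p = 0.00445).

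Il13, the gene of a cytokine that induces mucus production, had log2 signals of 8.82 and 8.53 with LPS, against 7.65 and 7.47 in unstimulated BMEos, and of 9.71 and 8.98 with IgE, against 6.84 and 7.15 in unstimulated BMBs. Its LPS rise was 1.11 ± 0.23 and its IgE rise 2.35 ± 0.23, and the difference of -1.24 passed (limma adjusted p = 0.0363), though it did not without either pair of BMEos arrays (adjusted p = 0.0845 without the Slpi-/- pair and 0.103 without the wildtype pair). The LPS call of Il13 was lost in the same settings (adjusted p = 0.0862 and 0.0661). Il4, which switches B cells to IgE, rose by 0.52 ± 0.15 with LPS (adjusted p = 0.0446) and by 0.86 ± 0.15 with IgE (adjusted p = 0.0102), and the difference of -0.34 did not pass (limma adjusted p = 0.286, and 0.0892 to 0.9 under the alternatives). The LPS call of Il4 was lost when arrays were centred on their medians (adjusted p = 0.0695) or without the wildtype pair of BMEos (0.4), and its IgE call without the Slpi-/- pair of BMBs (0.109). Of the 13 tested genes for type 2 cytokines and growth factors, 4 rose and 3 fell with LPS, and 7 rose and 1 fell with IgE. The rises with LPS numbered 2 with arrays centred on their medians, 1 without the Slpi-/- pair of BMEos and 0 without the wildtype pair. Those that rose with IgE alone were Csf2 (1.23), Lif (1.77) and Hbegf (1.24), the genes of GM-CSF, of a survival factor of stem cells and of a ligand of the EGF receptor. Osm, a relative of Il6, fell by 1.35 with LPS and rose by 1.24 with IgE, and Vegfa, which drives vessel growth, fell by 2.36 with LPS, with an IgE difference of -0.20 ± 0.31. Without the wildtype pair of BMBs, the IgE difference of Vegfa was -0.92 and passed (limma adjusted p = 0.0232).

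Of 15 CC chemokine genes, 6 rose and 0 fell with LPS, and 3 rose and 1 fell with IgE (6 rose without the wildtype pair of BMBs), with 2 that rose alike and 1 that rose in BMEos only. Of 8 CXC chemokine genes, 4 rose with LPS (2 without the wildtype pair of BMEos) and 1 with IgE, with 1 that rose alike and 3 that rose in BMEos only. With all 8 arrays, no chemokine gene moved in BMBs only or in opposite directions, against 7.38% and 3.21% of all tested genes. In lists of 15 and 8 genes such shares amount to few genes. Some chemokine genes met these rules when a pair of BMB arrays was left out. Ccl4, the gene of a CC chemokine, had signals of 7.54 and 7.66 with LPS, against 6.07 and 6.06, and of 10.97 and 10.34 with IgE, against 8.54 and 9.04, and it rose by 1.53 ± 0.24 and by 1.86 ± 0.24. The difference of -0.33 did not pass (95% interval of plus or minus 0.81 around it). Ccl17, whose product draws Th2 cells through CCR4, rose by 0.51 ± 0.11 with LPS and by 2.34 ± 0.11 with IgE, the LPS call being lost without either BMEos pair (limma adjusted p = 0.144 and 0.0753). Cxcl2, a neutrophil attractant, rose by 1.98 with LPS and by 1.04 with IgE. Cxcl10, a ligand of CXCR3 on Th1 cells, had the largest LPS rise of all named genes: 12.64 and 11.94 with LPS, against 5.78 and 5.59, while BMBs stood at 5.43 and 5.37 with IgE, against 5.55 and 5.64. Ccl5 had signals of 10.19 and 10.31 with LPS, against 6.27 and 6.10, and of 6.99 and 7.60 with IgE, against 9.97 and 7.55, so that the IgE arrays and the wildtype unstimulated BMB array lay together. Its IgE difference of -1.46 ± 0.61 did not pass (limma adjusted p = 0.141) and did without the wildtype pair of BMBs (adjusted p = 0.00269).

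**Figure D2:**
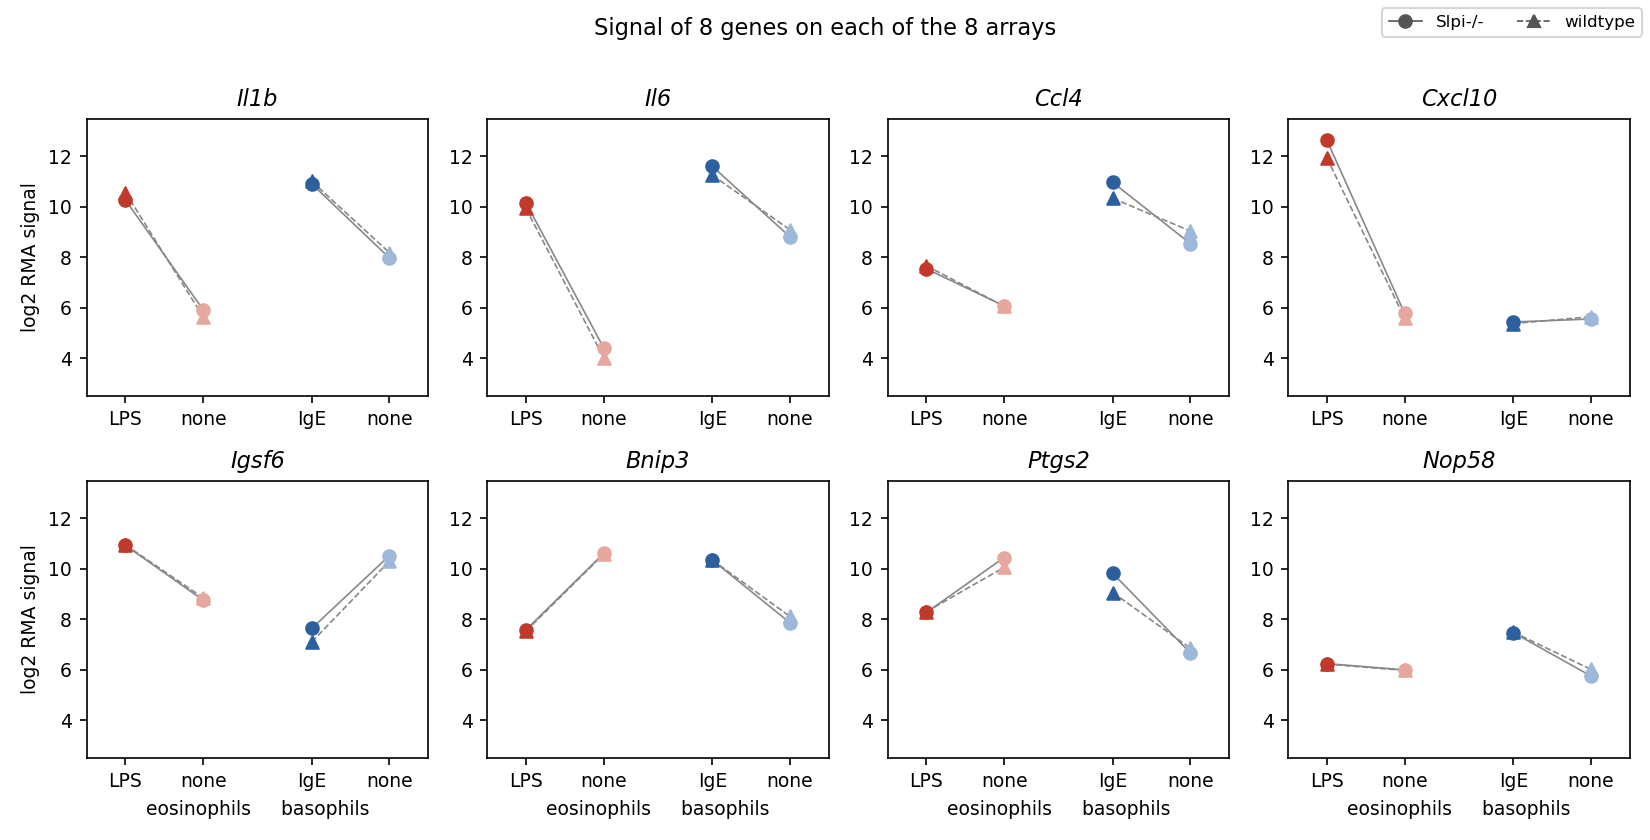
Log2 RMA signal of 8 genes on each of the 8 arrays, with stimulated and unstimulated arrays of a cell type and genotype joined by a line (circles and solid lines for Slpi-/-, triangles and dashed lines for wildtype). Il1b, Il6 and Ccl4 rise with both stimuli, Cxcl10 with LPS only (12.64 and 11.94 with LPS, 5.43 and 5.37 with IgE), Nop58 with IgE only, and the lines of Igsf6, Bnip3 and Ptgs2 run in opposite directions in the 2 cell types.

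Further leading genes rose with both stimuli. Cd69, a surface lectin that appears early on activated leukocytes, had signals of 10.96 and 10.89 with LPS, against 5.76 and 5.84, and of 10.62 and 10.56 with IgE, against 9.23 and 9.92, so that the stimulated arrays of both cell types stood close together. It rose by 5.13 ± 0.18 and by 1.01 ± 0.18 (limma adjusted p = 0.00999 for IgE, and 0.052 without the Slpi-/- pair of BMBs). Pim2, a survival kinase, rose by 1.58 with LPS and by 1.30 with IgE. Socs1 and Cish, inhibitors of cytokine signalling through JAK kinases, rose by 0.61 and 0.76 with LPS and by 1.27 and 1.31 with IgE, and their LPS calls were lost without either BMEos pair (adjusted p between 0.0712 and 0.317). The list of SOCS and PIM genes had 15 tested members, of which 3 rose and 4 fell with LPS, 6 rose and 1 fell with IgE, and 3 rose alike. Of 16 MAP kinase phosphatase and Sprouty genes, 6 rose and 2 fell with LPS, 5 rose and 0 fell with IgE, and 3 rose alike. With arrays centred on their medians, 3 rose and 3 fell with LPS and 1 moved alike. Without the wildtype pair of BMEos, 2 rose with LPS and 0 moved alike, 3 rose without the Slpi-/- pair, and 2 rose with IgE without the Slpi-/- pair of BMBs. Dusp5 (0.42 and 1.18), Spred1 (0.59 and 0.70) and Spred2 (0.40 and 0.68) rose with both, Dusp4 rose by 1.60 with IgE only, and Dusp1 fell by 2.43 with LPS only. The LPS call of Dusp5 was lost without either BMEos pair (limma adjusted p = 0.156 and 0.155), and Spred1 lost its LPS call without the wildtype pair of BMEos (0.107) and its IgE call without the Slpi-/- pair of BMBs (0.0651). Egr2, a target of NFAT, rose by 0.94 and 1.26. Tlr2, the receptor of bacterial lipoproteins, had signals of 7.18 and 7.15 with LPS, against 5.67 and 5.71, and of 10.44 and 10.80 with IgE, against 6.90 and 9.04. Its LPS call was lost without either BMEos pair (limma adjusted p = 0.121 and 0.107). Pilra, an inhibitory receptor of myeloid cells, rose by 5.20 ± 0.26 with LPS and by 1.45 ± 0.26 with IgE. Myo10, a motor protein of filopodia, rose by 1.63 and 1.51. Mmp12 (2.31 and 1.20) and Mmp13 (0.65 and 2.17), genes of matrix metalloproteinases, rose with both stimuli as well, though the LPS call of Mmp13 was lost without either BMEos pair (adjusted p = 0.129 and 0.0743 in limma).

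Genes that fell with both stimuli included histone genes and brakes on growth. H2bc8, an H2B histone gene, had signals of 7.33 and 7.29 with LPS, against 10.07 and 9.96, and of 7.22 and 6.87 with IgE, against 9.69 and 9.16, and it fell by 2.71 ± 0.10 with LPS and by 2.38 ± 0.10 with IgE. H1f2, a linker histone gene, fell by 1.76 and by 1.85. The difference between the responses did not pass for either gene (limma adjusted p = 0.134 and 0.833). Cdkn1b (-1.65 and -0.64), Gadd45a (-1.97 and -1.04) and Ccng2 (-1.70 and -0.54), which slow the cell cycle, and Bcl2l11 (-1.0 and -0.61), which encodes the death protein BIM, fell with both. The IgE calls of Cdkn1b and Bcl2l11 were lost without the Slpi-/- pair of BMBs (limma adjusted p = 0.0616 and 0.081). Of 18 genes for G1 cyclins and cell cycle inhibitors, 4 rose and 9 fell with LPS (1 and 5 without either BMEos pair), and 3 rose and 6 fell with IgE (2 fell without the Slpi-/- pair of BMBs and 3 without the wildtype pair). Ypel3 (-1.70 and -1.45), Crebrf (-1.38 and -1.41), Mettl7a1 (-1.51 and -1.38) and Tcp11l2 (-1.62 and -2.26) also fell with both. Among genes that carry the IgE signal, Gab2 (-1.53 and -0.53), Plcg1 (-0.84 and -0.82) and Stim1 (-0.43 and -0.62), an adaptor, a phospholipase and a calcium sensor, fell with both. The IgE call of Gab2 was lost without either BMB pair (limma adjusted p = 0.122 and 0.053), and Stim1 lost its LPS call without either BMEos pair (0.18 and 0.132) and its IgE call without the wildtype pair of BMBs (0.0622).

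Of all gene lists, that of glycolysis and hypoxia held the most genes that moved in opposite directions. Of 25 tested members of the list, 22 fell and 0 rose with LPS, 19 rose and 0 fell with IgE, and 18 did both. The list had a median of -1.05 with LPS and 0.83 with IgE. Without the wildtype pair of BMEos, 14 fell with LPS and 12 moved in opposite directions. Without the Slpi-/- pair of BMBs, 16 rose with IgE. Bnip3, a mitophagy receptor that hypoxia induces, had log2 signals of 7.58 and 7.53 with LPS, against 10.61 and 10.58, and of 10.35 and 10.35 with IgE, against 7.86 and 8.11. The IgE-treated BMBs thus stood near the unstimulated BMEos, and the LPS-treated BMEos near the unstimulated BMBs. Bnip3 fell by 3.04 ± 0.10 with LPS and rose by 2.37 ± 0.10 with IgE, a difference of -5.40 (limma adjusted p = 4.37e-05). Pfkl, the liver form of phosphofructokinase, which commits sugar to glycolysis, had 8.02 and 8.01 with LPS, against 9.33 and 9.39, and 9.12 and 9.17 with IgE, against 7.50 and 7.70. Tpi1, the triose isomerase, had 9.79 and 9.87 with LPS, against 11.15 and 11.17, and 10.81 and 10.68 with IgE, against 8.65 and 9.15. P4ha1, a subunit of the collagen prolyl hydroxylase, fell by 1.23 with LPS and rose by 2.05 with IgE. Ldha (-0.98 and 1.40), Slc2a1 (-1.57 and 0.83), Pgk1 (-1.08 and 1.82), Pgam1 (-0.67 and 1.44) and Pkm (-0.50 and 0.97), which encode lactate dehydrogenase, the glucose transporter GLUT1 and 3 enzymes of the lower pathway, moved the same way. Of these, Ldha and Slc2a1, like Hif1a, were added after their values were seen. Egln3, a prolyl hydroxylase that marks HIF for destruction, fell by 0.45 ± 0.12 with LPS, a call lost without either BMEos pair (limma adjusted p = 0.2 and 0.146), and rose by 3.44 ± 0.12 with IgE, with signals of 10.11 and 9.66 against 6.47 and 6.41. Hif1a, the oxygen-regulated subunit itself, had an LPS difference of 0.35 ± 0.12, which did not pass (limma adjusted p = 0.0753), and rose by 0.49 ± 0.12 with IgE, which was lost without the Slpi-/- pair of BMBs (0.255). Pfkfb3 and Slc2a3 fell by 1.10 and 1.06 with LPS and did not pass with IgE (0.12 and 0.39). Aldoc, which is no member of the list, had 7.01 and 6.78 with LPS, against 8.62 and 8.48, and 8.84 and 8.11 with IgE, against 6.21 and 7.14, and its LPS call was lost without either BMEos pair (adjusted p = 0.0683 and 0.0789).

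**Figure D3:**
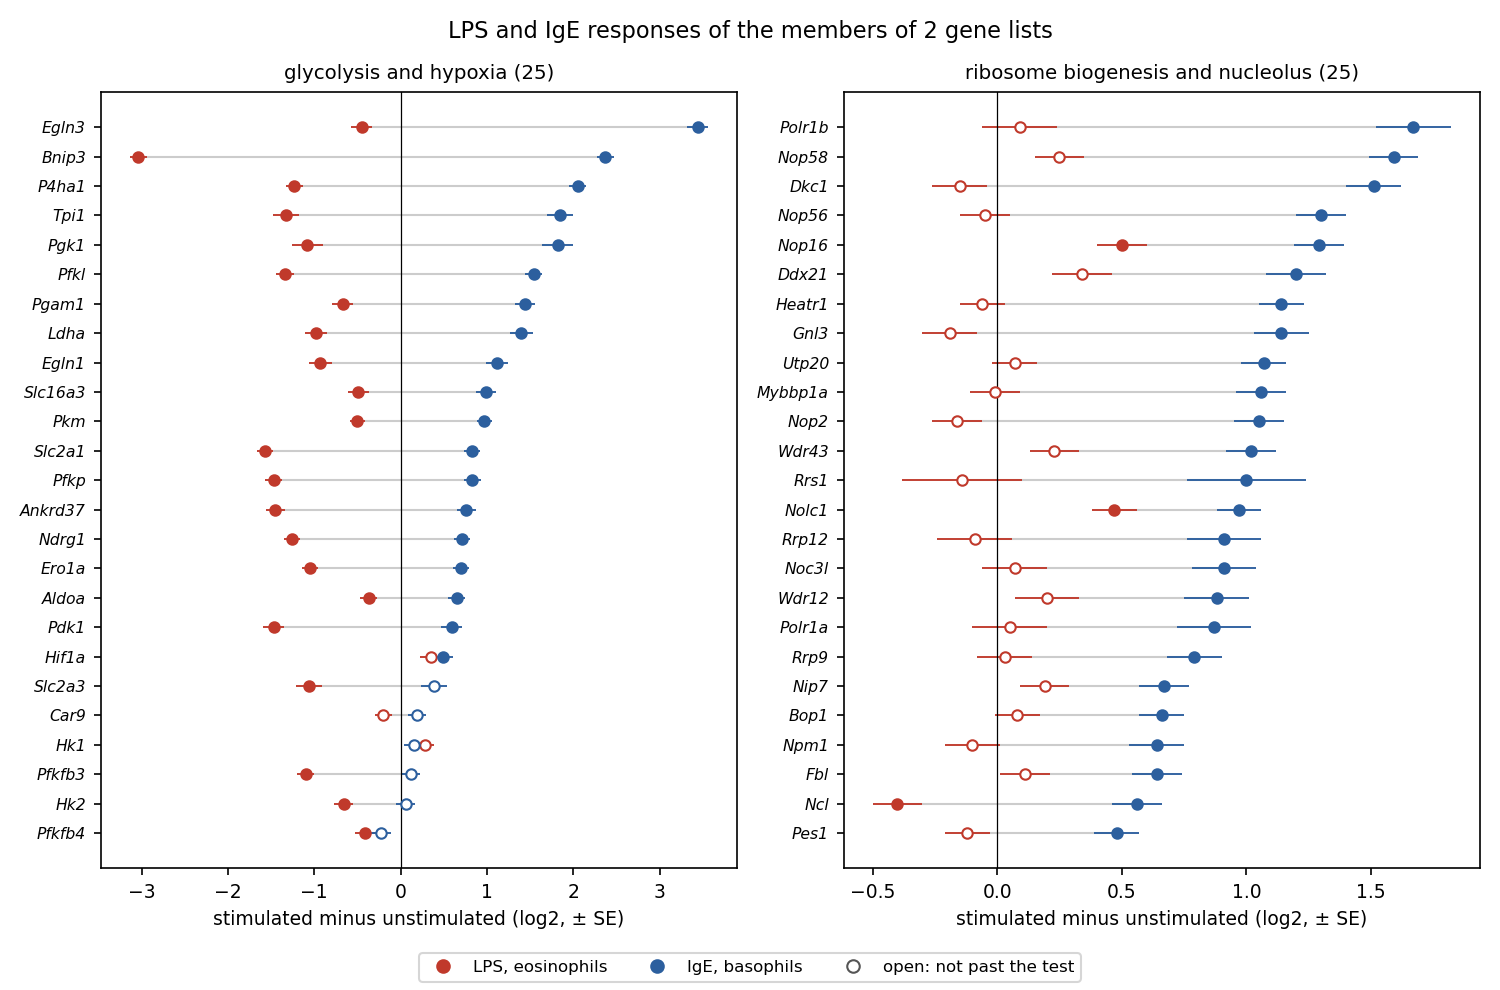
Stimulated minus unstimulated log2 signal (± SE from the fit) of the 25 tested members of the glycolysis and hypoxia list and of the 25 of the ribosome biogenesis list, with LPS in red and IgE in blue and open symbols for values that did not pass. In the left panel 22 members passed left of 0 with LPS and 19 right of 0 with IgE, and in the right panel all 25 passed right of 0 with IgE.

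Other genes fell with LPS and rose with IgE. Ptgs2, which encodes the inducible cyclooxygenase COX-2 and is known as a target of LPS in macrophages, had signals of 8.27 and 8.30 with LPS, against 10.45 and 10.06 in unstimulated BMEos, and of 9.82 and 9.06 with IgE, against 6.66 and 6.85 in unstimulated BMBs. It fell by 1.97 ± 0.22 and rose by 2.69 ± 0.22. Hmox1, the haem oxygenase of the oxidative stress response, fell by 0.54 ± 0.16 with LPS and rose by 2.26 ± 0.16 with IgE, and the fall was lost under quantile normalization (limma adjusted p = 0.0707) and without either BMEos pair (0.241 and 0.134). Hsp90aa1, a chaperone gene, fell by 1.22 with LPS and rose by 1.13 with IgE (limma adjusted p = 0.0531 for IgE without the Slpi-/- pair of BMBs). Of 14 heat shock genes, 1 rose and 6 fell with LPS, and 7 rose and 0 fell with IgE (3 rose without the Slpi-/- pair of BMBs). The largest change among them was that of Hspa1a, with 6.01 and 6.18 with LPS, against 11.26 and 9.71 in unstimulated BMEos, and 6.27 and 7.08 with IgE, against 5.63 and 5.74 in unstimulated BMBs (IgE difference 0.99 ± 0.38, limma adjusted p = 0.113, and 0.0103 when the BMB arrays were fitted alone). Snord14e and Snord42b, small nucleolar RNAs encoded inside other genes, fell by 3.72 and 1.36 with LPS and rose by 1.32 and 1.61 with IgE, and Rpl12, a ribosomal protein gene, fell by 1.32 and rose by 1.59. The array does not separate a small nucleolar RNA from the precursor of its host gene.

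Immediate early factors, which are transcribed within minutes of a stimulus, fell more often with LPS at 3 h than they rose. Of 28, 3 rose and 12 fell with LPS, 11 rose and 3 fell with IgE (6 rose without the Slpi-/- pair of BMBs), and 5 fell with LPS and rose with IgE. Fos had signals of 5.74 and 5.51 with LPS, against 9.32 and 9.41 in unstimulated BMEos, and of 5.31 and 5.16 with IgE, against 5.80 and 5.69 in unstimulated BMBs, where the unstimulated arrays stood just above background and the IgE arrays below it. Its fall with IgE was lost without either BMB pair (limma adjusted p = 0.116 and 0.104). The unstimulated BMEos arrays thus stood apart from all other arrays for Fos, as they did for Hspa1a. Jun (-1.63), Junb (-1.54) and Klf6 (-1.15) fell with LPS as well. Csrnp1, a nuclear factor induced by AXIN, had 6.46 and 6.63 with LPS, against 8.52 and 8.56, and 8.19 and 8.0 with IgE, against 6.99 and 7.0. Atf3 (-0.91 and 0.68) and Nr4a1 (-0.58 and 0.70) moved in opposite directions too. Myc, which drives growth and ribosome synthesis and was added after its values were seen, had an LPS difference of -0.05 ± 0.11, and it rose by 1.49 ± 0.11 with IgE, with signals of 9.63 and 9.64 against 8.0 and 8.29. Fosl1, an AP-1 subunit, had an LPS difference of 0.03 ± 0.13 and rose by 1.96 ± 0.13 with IgE.

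Ranked by the smaller of their 2 differences, Igsf6 and Rassf4 led the genes that rose with LPS and fell with IgE. Igsf6, an immunoglobulin superfamily receptor of myeloid cells, had signals of 10.93 and 10.95 with LPS, against 8.76 and 8.85, and of 7.64 and 7.10 with IgE, against 10.53 and 10.31. It rose by 2.13 ± 0.11 and fell by 3.05 ± 0.11. Rassf4, a member of a family of RAS effectors, had 10.71 and 10.83 with LPS, against 7.86 and 7.75, and 7.01 and 6.59 with IgE, against 8.65 and 8.33. Abca1, the cholesterol exporter, rose by 1.99 with LPS and fell by 1.39 with IgE, and Acod1, the enzyme of itaconate synthesis, rose by 2.84 and fell by 1.08 (the IgE call of Acod1 was lost without the wildtype pair of BMBs, limma adjusted p = 0.129). Clec4d, a C-type lectin that binds fungal and mycobacterial glycans, rose by 1.25 and fell by 1.13. Irak3, an inhibitory member of the IRAK family, rose by 2.52 and fell by 0.55, and Il1rap, the shared chain of the IL-1 and IL-33 receptors, rose by 0.46 and fell by 1.17. The IgE call of Irak3 was lost without the wildtype pair of BMBs (limma adjusted p = 0.064), and the LPS call of Il1rap without either BMEos pair (0.146 and 0.0773). Slfn8, a schlafen gene added after its values were seen, rose by 5.12 with LPS, with signals of 9.14 and 8.33 against 4.07 and 3.16. It fell by 1.02 with IgE, where 1 BMB array, the unstimulated Slpi-/- one at 5.85, stood above background. The IgE call of Slfn8 was lost with genotype left out of the fit (limma adjusted p = 0.0554). Among 14 genes of MHC class II and costimulation, 6 rose and 1 fell with LPS, 3 rose and 4 fell with IgE, and 4 did both: H2-Aa (1.30 and -0.94), H2-Eb1 (0.57 and -0.51), Cd74 (1.74 and -0.34) and Cd80 (1.23 and -0.43). The IgE calls of Cd74 and Cd80 were lost without either pair of BMBs (limma adjusted p between 0.117 and 0.167), and that of H2-Aa without the wildtype pair (0.133). The IgE calls of H2-Aa, Cd74 and Cd80 also failed once genotype was left out of the fit (limma adjusted p = 0.199, 0.561 and 0.191), as did the LPS call of H2-Aa (0.0678). Beside these falls, the summed signal of 12 neutrophil markers in BMBs was 12.28 to 12.35 with IgE, against 13.22 to 13.26 without. Of the 12, 5 and 6 stood above background with IgE, against 6 and 10 without. The brightest were Ly6g (11.15 and 10.95 with IgE, against 12.68 and 12.38) and Cxcr2 (11.25 and 11.34, against 11.41 and 11.42). Lcn2 read 7.36 with IgE, against 7.13, in Slpi-/- BMBs, and 6.29, against 8.32, in wildtype BMBs. S100a8 and S100a9 ran the same way, below background in Slpi-/- BMBs. Summed signals of 8 dendritic cell markers in BMBs were 8.58 to 9.12 with IgE, against 8.58 to 8.90 without. Those of 10 monocyte and macrophage markers were 12.13 to 12.24, against 11.84 to 12.14. Those of 7 B cell markers were 7.84 to 7.96, against 7.95 on both unstimulated arrays. The part of such markers in the falls was not tested. Beside the rises of MHC class II genes with LPS, 4 and 5 of 8 dendritic cell markers stood above background on the LPS arrays, against 1 and 2 on the unstimulated BMEos arrays, with Siglech at 6.50 and 6.49 (5.47 and 5.85 without) and Zbtb46 at 5.99 and 5.79 (5.55 and 5.53 without). Their summed signal in Slpi-/- BMEos was 9.64 with LPS, against 10.21 without, and lower with LPS in wildtype BMEos too, and Itgax, the brightest of them, had 8.73 and 8.47 with LPS, against 9.80 and 9.51. Xcr1 and Clec9a stood below background on all 4 BMEos arrays, and the part of such cells was not tested.

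Interferon-induced genes rose with LPS in BMEos and did not rise with IgE in BMBs. All 34 tested members of the list rose with LPS, 0 rose and 3 fell with IgE, and 29 of them met the rule for a move in BMEos only. The medians were 2.60 with LPS and -0.21 with IgE, and all 34 rose with LPS when any 1 of the 4 pairs of arrays was left out, while the falls with IgE numbered 1 to 5. Rsad2, whose product viperin blocks viral replication, had signals of 11.61 and 10.65 with LPS, against 5.23 and 5.06, and its signals of 5.46 and 5.31 with IgE, against 5.58 and 5.51, were all below background. Usp18, a protease that removes ISG15 and dampens interferon receptors, had 12.33 and 11.83 with LPS, against 7.26 and 6.92, and 7.19 and 6.94 with IgE, against 7.50 and 6.91. It was thus expressed in unstimulated BMBs and BMEos at like signals on the same probe set, and rose by 4.99 ± 0.12 in BMEos, with an IgE difference of -0.14 ± 0.12. Irf7, the interferon-amplifying factor, had 10.64 and 10.16 with LPS, against 6.30 and 6.13, and 6.80 and 6.51 with IgE, against 7.0 and 7.03. Cmpk2 (5.20), Slfn5 (4.44), Ifit1 (4.24), Irgm1 (3.71) and Ifih1 (3.46) rose as well. Those that fell with IgE were Irf1 (-0.56), Trim30a (-0.74) and Slfn2 (-0.67).

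Of 23 genes of NF-kB subunits and inhibitors, 17 rose and 0 fell with LPS (16 and 1 with arrays centred on their medians), and 0 rose and 3 fell with IgE (5 fell under quantile normalization, and 2 to 6 when a pair of arrays was left out), with medians of 1.15 and -0.16. Nfkbia, whose product holds NF-kB in the cytoplasm and is a target of NF-kB itself, had 11.02 and 11.10 with LPS, against 8.08 and 8.09, and 8.80 and 9.03 with IgE, against 9.0 and 8.72. The IgE and unstimulated BMB arrays overlapped for Nfkbia (IgE difference 0.05 ± 0.14), although Il1b, Il6 and Tnf rose on the same arrays. Ikbke (3.30), Bcl3 (2.68), Nfkb2 (2.26), Tnip1 (1.89), Traf1 (1.83) and Relb (1.78), genes of a kinase, cofactors, adaptors and subunits of the pathway, rose with LPS and had IgE differences between -0.31 and 0.13, none of which passed. The genes that fell with IgE were Ikbkb (-0.94), Birc3 (-0.66) and Cyld (-0.68). Of 24 genes of the Toll-like receptor pathway, 10 rose and 2 fell with LPS, and 1 rose and 4 fell with IgE (2 fell without either BMB pair). Map3k8 (3.36), Irak3 (2.52), Tlr9 (2.30) and Cd14 (1.45) rose with LPS, and Tlr4, added after its values were seen, fell by 0.63 ± 0.14 (lost without the wildtype pair of BMEos, limma adjusted p = 0.161).

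**Figure D4:**
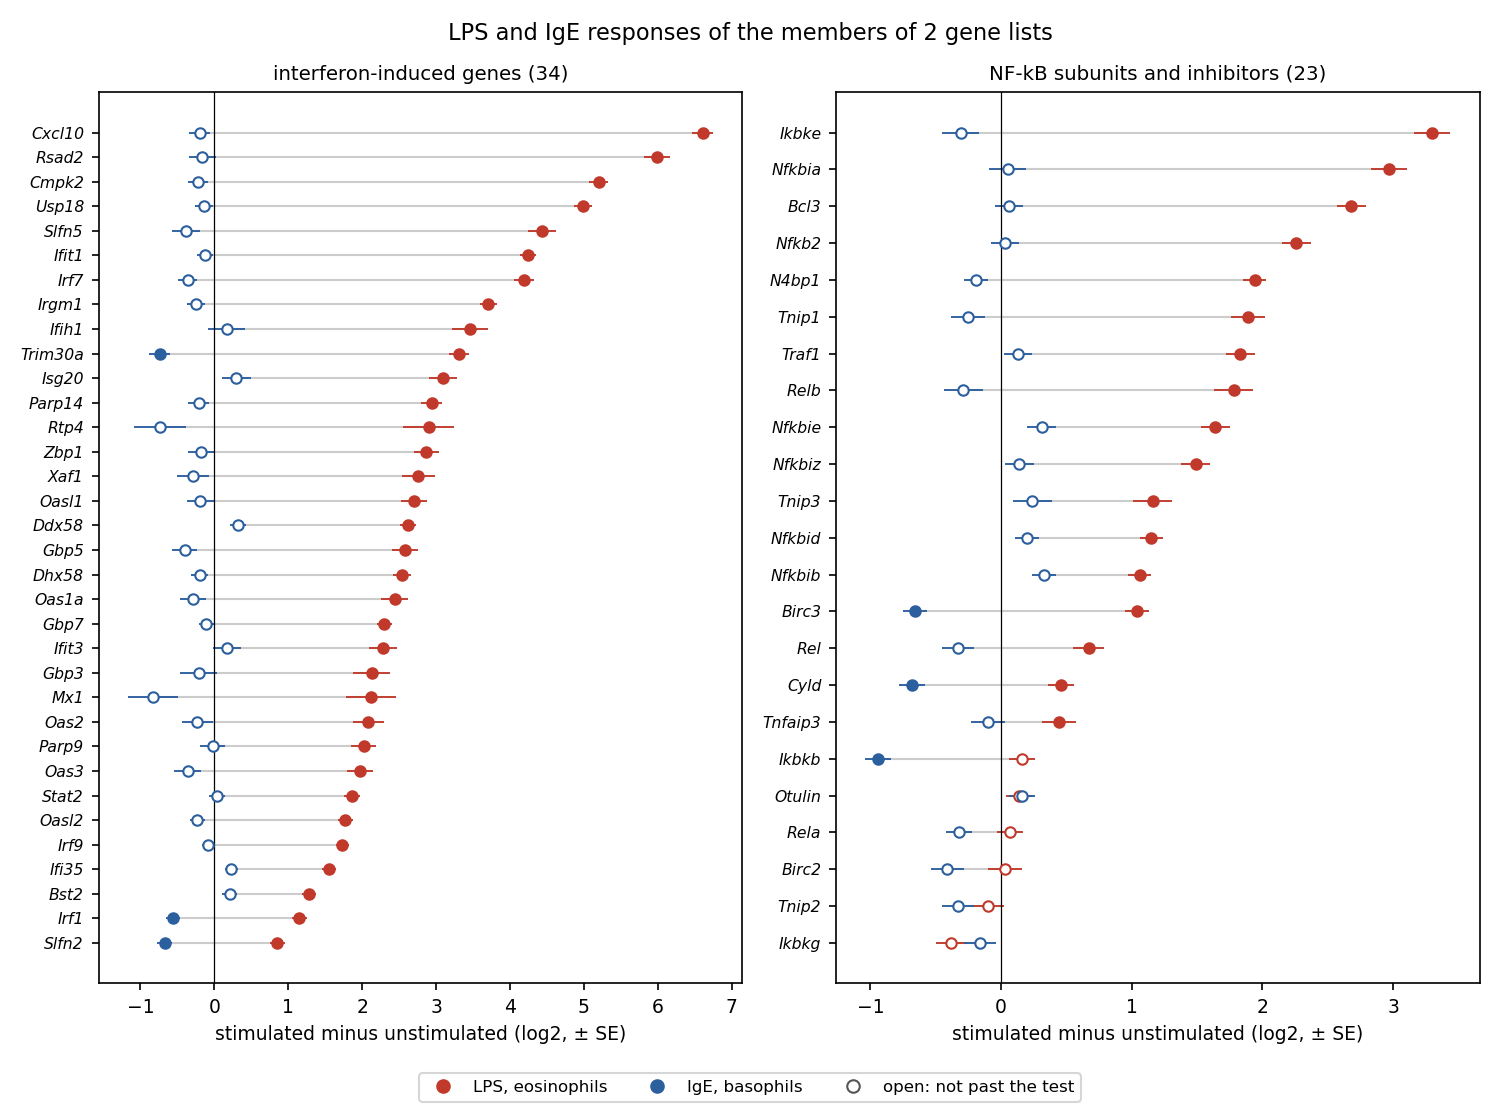
Stimulated minus unstimulated log2 signal (± SE from the fit) of the 34 tested interferon-induced genes and of the 23 NF-kB genes, with LPS in red and IgE in blue and open symbols for values that did not pass. All 34 interferon-induced genes lie right of 0 with LPS, and the IgE values of both panels lie between -0.94 and 0.33.

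Further genes moved in BMEos only. Clec4e, the receptor Mincle for mycobacterial cord factor, had 10.71 and 10.82 with LPS, against 6.78 and 6.65, and 8.99 and 8.73 with IgE, against 9.16 and 9.24. Dgat2, which makes triglyceride for lipid droplets, rose by 4.35 ± 0.16, Casp4, a sensor of cytosolic LPS, by 3.73 ± 0.11, Icam1, an adhesion receptor, by 2.70 ± 0.11, and Zc3h12a, an RNase that degrades cytokine mRNA, by 2.47 ± 0.13. Sod2, the mitochondrial superoxide dismutase, rose by 2.0 ± 0.12. Summed signals of 10 monocyte and macrophage markers were 12.91 to 12.96 with LPS, against 12.44 to 12.47 without, with 6 of the 10 above background with LPS and 5 without. Most of that sum was Adgre1, at 12.53 and 12.55 with LPS, against 12.09 and 12.09 without, and at 10.82 to 11.88 on the BMB arrays. Csf1r, the next brightest of them in BMEos, had 10.27 and 10.44 with LPS, against 9.62 and 9.43. The defining marker C1qa had 5.97 and 5.69 with LPS, against 5.36 and 5.33, and Marco stood below background on all 4 BMEos arrays. Mrc1 and Ccr2, also below background there, read lower with LPS in both genotypes. The part of such cells was not tested. Among the falls, Rgs1, which shortens chemokine receptor signals, had 5.88 and 5.82 with LPS, against 10.83 and 10.79, and 8.66 and 9.06 with IgE, against 8.48 and 8.87. It fell by 4.96 ± 0.09 in BMEos, with an IgE difference of 0.19 ± 0.09. Ahr, the dioxin receptor, fell by 3.51, H2bc4, a histone gene, by 3.27, Per1, a clock gene, by 2.83, Cxcr4, the receptor that retains cells in the marrow, by 2.37, and Il1r2, the decoy receptor of IL-1, by 2.02. P2ry10 (-2.61) and Gla (-2.56) fell as well, and both lie on chromosome X. Cxcr4 and H2bc4 had IgE differences of -0.36 and -0.42, which passed in some alternatives. With a variance trend on mean signal, their limma adjusted p was 0.0285 and 0.0362.

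Of all gene lists, that of ribosome biogenesis held the most genes that moved in BMBs only. Of its 25 members, 2 rose and 1 fell with LPS, all 25 rose with IgE, and 20 met the rule for a move in BMBs only. The list had medians of 0.05 with LPS and 1.00 with IgE. Without the Slpi-/- pair of BMBs, 15 passed with IgE and 10 met the rule, and without the wildtype pair of BMEos 12 met it. Nop58, a core protein of small nucleolar RNPs, had signals of 6.24 and 6.22 with LPS, against 5.99 and 5.97, and of 7.47 and 7.49 with IgE, against 5.75 and 6.01. Its LPS difference of 0.25 ± 0.10 did not pass, and it rose by 1.59 ± 0.10 with IgE. Polr1b, a subunit of RNA polymerase I, rose by 1.67 ± 0.15 with IgE, and Dkc1, the pseudouridine synthase of H/ACA RNPs, by 1.51 ± 0.11. Nop16 (0.50 and 1.29) and Nolc1 (0.47 and 0.97) rose with both stimuli (the LPS call of Nop16 was lost without either BMEos pair, limma adjusted p = 0.135 and 0.0796), and Ncl, the gene of nucleolin, fell by 0.40 with LPS and rose by 0.56 with IgE.

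Other biosynthetic lists rose with IgE in part. Of 28 genes of the unfolded protein and integrated stress response, 1 rose and 8 fell with LPS, and 14 rose and 1 fell with IgE. Those that rose with IgE included chaperones and disulfide isomerases of the endoplasmic reticulum such as Hspa5 (1.62), Pdia6 (1.71) and Sdf2l1 (1.67), while Ddit3, the gene of the stress factor CHOP, fell by 0.88 with LPS, with an IgE difference of -0.21. Hyou1, an ER chaperone outside the list, had 8.11 and 8.22 with LPS, against 8.13 and 8.13, and 10.01 and 10.14 with IgE, against 7.94 and 8.40. Of 26 genes for amino acid transport and tRNA charging, 4 rose and 4 fell with LPS (2 fell without the Slpi-/- pair of BMEos and 1 without the wildtype pair), and 15 rose and 0 fell with IgE. Psat1, an enzyme of serine synthesis, rose by 1.65 with IgE only. Of 26 cholesterol genes, 2 rose and 4 fell with LPS (1 fell without either BMEos pair), and 10 rose and 3 fell with IgE. Those that rose with IgE included Insig1 (1.42), Sqle (1.34) and Idi1 (0.97), and those that fell were the exporters Abca1 and Abcg1 and Mylip, which degrades the LDL receptor. Without the Slpi-/- pair of BMBs, the rises numbered 8 in the stress list, 6 in the amino acid list and 2 in the cholesterol list, and Idi1 was among those lost (limma adjusted p = 0.0965). Without the Slpi-/- pair of BMEos, 5 genes of the stress list fell with LPS. Of 34 genes of the cell cycle and DNA replication, 3 rose and 3 fell with LPS, and 8 rose and 1 fell with IgE, with Mcm2 (1.14) and Pcna (0.93) among the rises. The BMB pairs ran in opposite directions for this list: without the Slpi-/- pair, 1 rose and 10 fell with IgE (median -0.29), and without the wildtype pair, 17 rose and 1 fell (median 0.70). Mki67, the proliferation antigen, had differences of 0.24 with LPS and -0.37 with IgE, neither of which passed.

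**Figure D5:**
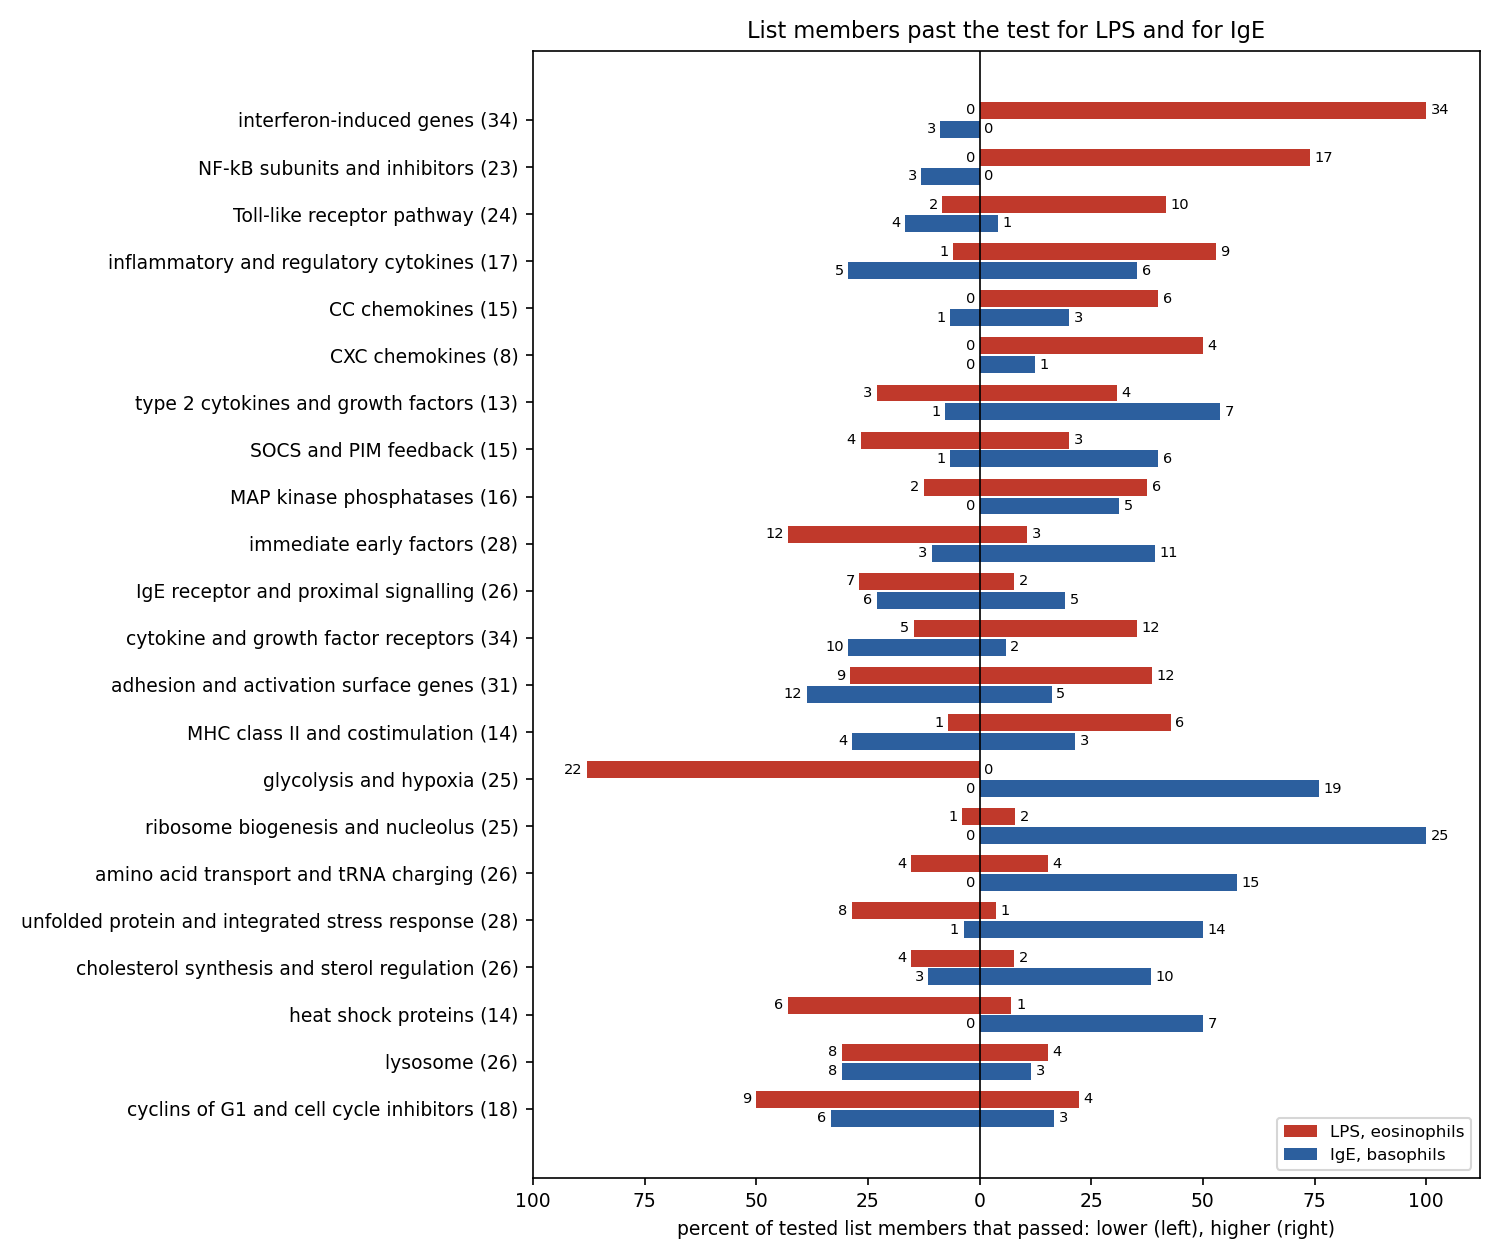
Percent of the tested members of 22 gene lists (number of members in brackets) that passed with LPS in BMEos (red) and with IgE in BMBs (blue), with falls to the left and rises to the right of 0 and counts at the bars. Over all tested genes, 12.9% rose and 16.6% fell with LPS, and 12.4% rose and 10.8% fell with IgE.

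Some of the largest rises in BMBs were of genes that stood below background on all BMEos arrays. Gem, a small GTPase that limits calcium channels, lay between 5.00 and 5.47 on the 4 BMEos arrays and had 11.13 and 11.07 with IgE, against 6.69 and 7.86. Ptprg, a receptor tyrosine phosphatase, had 9.14 and 9.92 with IgE, against 5.07 and 6.75. Tph1, the first enzyme of serotonin synthesis, rose by 2.95 ± 0.34, Nt5e, the ectonucleotidase CD73, by 2.18 ± 0.16, and Gzmb, the protease granzyme B, by 1.79 ± 0.17. Arnt2, a partner of bHLH-PAS factors, and Cdh17, a cadherin, rose by 2.42 and 1.99 and stood above background in BMEos on 3 and on 4 arrays.

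The falls of BMBs only were led by Alox15, the 15-lipoxygenase that is abundant in eosinophils. It had signals of 12.75 and 12.57 with LPS, against 12.72 and 12.60 in unstimulated BMEos, and of 7.02 and 5.99 with IgE, against 10.30 and 9.95 in unstimulated BMBs. Ccr3, the eotaxin receptor, had 12.06 and 11.92 with LPS, against 12.30 and 12.25, and 6.36 and 4.63 with IgE, against 7.55 and 6.78. Its difference between the responses was lost without either BMEos pair (limma adjusted p = 0.0659 and 0.0554) and with genotype left out of the fit (0.17). Alox15 and Ccr3 belong to the 6 measured eosinophil markers, whose summed signal in BMBs was 7.70 to 8.33 with IgE, against 10.26 to 10.63 without, with 2 and 1 of them above background with IgE, against 2 and 2 without. Without IgE that sum was mostly Alox15 itself, so it is no reading apart from the Alox15 fall. The defining granule genes Prg2 and Epx stood below background on all 4 BMB arrays, at 5.58 or lower, as did Prg3 and Il5ra. Ccr2 (-2.24), a monocyte chemokine receptor that basophils carry, and Hrh4 (-2.05), the histamine H4 receptor, fell in BMBs and stood below background in BMEos. Chpt1 (-2.22), which makes phosphatidylcholine, and P2rx7 (-2.17), an ATP-gated channel, fell in BMBs and were above background in BMEos. P2rx7 had 6.72 and 6.18 with IgE, against 9.63 and 7.60.

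Of 34 cytokine and growth factor receptor genes, 12 rose and 5 fell with LPS (5 rose without either BMEos pair, and 3 fell without the wildtype pair), and 2 rose and 10 fell with IgE (6 fell without the Slpi-/- pair of BMBs). Il10ra (1.13), Ifngr2 (1.05) and Tnfrsf1b (0.79) rose with LPS. Il18r1 (-0.66 and -0.98) and Il18rap (-1.15 and -0.48), the chains of the IL-18 receptor, fell with both, and Il4ra fell by 0.46 with LPS and rose by 0.46 with IgE. Il18r1 lost its LPS call without the wildtype pair of BMEos (limma adjusted p = 0.222) and its IgE call without the wildtype pair of BMBs (0.0574), and Il18rap its IgE call without the Slpi-/- pair of BMBs (0.134). Of 31 adhesion and activation surface genes, 12 rose and 9 fell with LPS, and 5 rose and 12 fell with IgE, with 3 falls left without either BMEos pair for LPS, and 1 rise and 6 falls without the Slpi-/- pair of BMBs for IgE. The chains of the IgE receptor moved little, and were added after their values were seen. Fcer1a, the IgE-binding chain, had 10.90 and 11.20 with IgE, against 11.47 and 11.43, a fall of 0.40 ± 0.11. Its call was lost with genotype left out of the fit (limma adjusted p = 0.49) and with no filter on signal (0.0871). The call was also lost with the BMB arrays fitted alone (0.0708) and without the Slpi-/- pair of BMBs (IgE difference -0.23). Ms4a2, the beta chain, had an IgE difference of 0.12 ± 0.09. Neither stood above background in BMEos. Of 26 genes of the IgE receptor and its proximal signals, 2 rose and 7 fell with LPS (4 fell without either BMEos pair), and 5 rose and 6 fell with IgE (2 and 2 without the Slpi-/- pair of BMBs, and 2 and 4 without the wildtype pair).

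Of 12 eosinophil granule and lineage genes, 2 rose and 1 fell with LPS, and 1 rose and 2 fell with IgE, the falls being those of Alox15 (-3.62) and Ccr3 (-1.66). Of 17 basophil and mast cell protease and lineage genes, 4 rose and 2 fell with LPS (1 rose without either BMEos pair), and 3 rose and 3 fell with IgE (2 and 0 without the Slpi-/- pair of BMBs). Slpi, the deleted gene, read low on the Slpi-/- arrays (5.93 and 6.41 in BMEos, 6.35 and 6.55 in BMBs), against 7.96 and 8.08 in wildtype BMEos and 11.33 and 11.42 in wildtype BMBs. Slpi passed with neither stimulus as deposited (LPS difference -0.30 ± 0.12, IgE difference -0.15 ± 0.12). With arrays centred on their medians, its LPS difference was -0.38 and passed (limma adjusted p = 0.0471). These averages include the Slpi-/- arrays, where the gene is deleted, so they do not measure the response of the intact gene. Mmp9, a secreted gelatinase, passed with neither stimulus (-0.31 ± 0.22 and -0.08 ± 0.22). The remaining lists, on calcineurin feedback, RNA decay, eicosanoid synthesis, oxidative stress, lysosomes, G-protein regulators, chemoattractant receptors, proteases, death genes and arginine metabolism, had medians between -0.21 and 0.24 with either stimulus. Of the 26 lysosome genes, 4 rose and 8 fell with LPS, and 3 rose and 8 fell with IgE, with 2 falls left without the Slpi-/- pair of BMEos for LPS (3 without the wildtype pair) and 2 without the Slpi-/- pair of BMBs for IgE (3 without the wildtype pair).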

How the data were processed

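The authors deposited log2 expression values of Affymetrix Mouse Gene 1.0 ST arrays after RMA in the affy package, with 1 value per probe set and array. The genome build and the annotation they used are not given in the sources used here. RMA sets all arrays to one distribution of probe intensities, so that a global shift with a stimulus cannot be seen. Of 34760 probe sets, 21640 carried 1 gene symbol in the platform annotation, 1321 carried several and were not named, and 11799 carried none. Of the probe sets with 1 symbol, 21553 matched RefSeq GRCm38.p6 by gene ID. For the 954 genes with several probe sets, the one with the highest mean signal was used. Array precision is limited by the number of arrays, 2 pairs per response.

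Genes above the 95th percentile of olfactory receptor genes on at least 1 of the 8 arrays were fitted in limma 3.58.1 (R 4.3.3) with 1 baseline per genotype in either cell type, a term for LPS, a term for IgE, and their contrast. The genotype thus served as the block that sets stimulated against unstimulated arrays, and the BMEos arrays of a pair were not of the same culture. The 8 arrays shared 1 estimate of the spread, with 2 residual degrees of freedom per gene. To these, limma added 4.45 prior degrees of freedom from the spread of all tested genes. P-values were adjusted by Benjamini-Hochberg over all tested genes, with 0.05 as threshold. Summed marker signals are log2 of summed linear signals. Named genes were the leading ones of each class and list by the size of their differences, and members of lists given as further examples, and those said to be added, were chosen after their values were seen. The genes, lists and classes were chosen with earlier results of these data known. The arrays of mast cells were not used here. Alternatives changed the scaling, the filter, the choice of probe set, the variance model, the block, the thresholds and the arrays included. Counts of list members under other scalings and without a pair of arrays were added after the data were seen.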

Additional observations from a re-analysis of the deposited data

Results flagged for a closer look

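The effects of the stimuli differed between the cell types by the test of the difference itself, and the named genes with the largest such differences among those that moved in opposite directions were these. On the log2 scale, the LPS response exceeded the IgE response by 6.14 for Slfn8, by 5.18 for Igsf6 and by 4.66 for Rassf4 (limma adjusted p = 3.75e-05, 4.76e-05 and 4.76e-05). Slfn8 was added after its values were seen, and only 1 BMB array stood above background for it. Its IgE fall was lost with genotype left out of the fit (limma adjusted p = 0.0554). The difference was -5.40 for Bnip3, -5.04 for Snord14e and -4.66 for Ptgs2 (limma adjusted p = 4.37e-05, 0.000206 and 0.000409). All 6 differences had the same direction in both genotypes. The LPS and IgE changes of all 429 genes that moved in opposite directions did so too, and this agreement adds no support to the 6.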

How the results depend on the processing

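Leaving out 1 pair of arrays gave 1542 to 4150 genes for LPS, 1134 to 2727 for IgE, 1632 to 2598 for the difference, 348 to 617 moved alike, 182 to 354 in opposite directions, 630 to 1038 in BMEos only and 431 to 837 in BMBs only, with 1 residual degree of freedom left. With at least 2-fold in each test, the counts were 649 for LPS, 492 for IgE, 1064 for the difference, 47 alike, 35 opposite, 334 in BMEos only and 224 in BMBs only. Without the filter on signal, 517 genes moved alike and 264 in opposite directions. The methods' t-test on the same pairs called 0 genes for LPS and 0 for IgE after Benjamini-Hochberg, with 2441 and 1502 below 0.05 unadjusted, where limma had 5689 and 4690. With no replicate block, 4192 genes passed for LPS, 3261 for IgE and 3381 for the difference, with 936 alike, 437 opposite, 1506 in BMEos only and 1017 in BMBs only. The other alternatives left these counts within 1.5 times. Of 8572 values of named genes under an alternative, 7970 kept their direction and side of the threshold, 525 lost the threshold (297 of them under the methods' t-test and 159 without a pair of arrays), 77 gained it and 0 changed direction. Other scalings moved counts of list members by at most 3. The causes were not tested, beyond the fewer arrays or genes an alternative holds. A gene below background on the arrays of a cell type has only an upper bound there.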
